A study of Homo sapiens with 19 samples.

Results

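The genes of the mitochondrial ribosomal proteins were followed in colorectal carcinoma cells treated with inhibitors of protein arginine methyltransferases (PRMTs). Members were the protein-coding genes whose symbol is MRPL or MRPS, a number and at most 1 letter, with pseudogenes left out. This gave 78 genes, 49 MRPL and 29 MRPS, among 60612 rows of the HCT116 table, 63086 of the WiDr table and 82890 of the WiDr Nanopore table. All 78 were present in each table, passed the count filter in every comparison, and were above 0 in every library. HCT116 and WiDr are human colorectal carcinoma cell lines. HCT116 was given 10 µM GSK025 (GSK3235025, an inhibitor of PRMT5), 5 µM GSK715 (GSK3368715, labelled as an inhibitor of PRMT1) or the solvent DMSO, with 3 libraries each, and poly(A) RNA was read as short paired reads after 96 h. WiDr was given 5 µM GSK715 or DMSO for 96 h, with 3 short-read libraries each and, from full-length cDNA on an Oxford Nanopore (ONT) sequencer, 2 libraries each. The control columns of both WiDr tables carry the name NC and were taken as DMSO because no other control group is labelled.

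The mitochondrial ribosome translates the few proteins encoded by mitochondrial DNA, all of them subunits of the respiratory chain and ATP synthase. Its ribosomal RNAs come from the mitochondrial genome, whereas its proteins are encoded in the nucleus, made in the cytosol and imported. By textbook assignment, 51 of the 78 belong to the large subunit, which forms peptide bonds and holds the exit tunnel, and 26 to the small subunit, which binds the mRNA. MRPS18A and MRPS30 lie in the large subunit despite their symbols. MRPS36 is now known as KGD4, a part of the oxoglutarate dehydrogenase complex, and was kept as a member by its symbol but counted in neither subunit. Of the members placed in a subunit, 48 have a bacterial counterpart and 29 do not. The genes lie on 21 chromosomes, so they do not form a cluster.

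Levels below are TMM-scaled CPM, that is counts relative to the effective size of their library, changes are given on the log2 scale (log2FC), each with the standard error (SE) derived from its test, and a gene is said to rise, fall or differ where its adjusted p was under 0.05 in edgeR's quasi-likelihood test with Benjamini-Hochberg adjustment over all genes tested. Library totals were 64558688 to 66915779 counts in HCT116, 59612948 to 82390261 in WiDr and 1449698 to 1667813 in ONT. The epithelial marker EPCAM lay at 225.1 to 254.6 CPM in HCT116 and at 472.4 to 556.1 CPM in WiDr, and KRT8, KRT18, KRT19 and CDH1 were present in both. VIL1 was at most 0.679 CPM in HCT116 and 61.6 to 104.4 CPM in WiDr short reads, and CDX2 was 10.7 to 16.7 CPM in HCT116 and 0.521 to 1.84 CPM in WiDr. The leukocyte gene PTPRC, the endothelial gene PECAM1 and the fibroblast gene LUM stayed at or under 2.15 CPM in the short reads, while COL1A1 reached 25.6 CPM in HCT116 and 16.4 CPM in WiDr. The members together took 0.4424% to 0.4722% of the counts with GSK025, 0.4113% to 0.4132% with GSK715 and 0.4101% to 0.4127% with DMSO in HCT116. In WiDr they took 0.326% to 0.3288% with GSK715 and 0.3404% to 0.3451% with DMSO, so the ranges do not overlap. Poly(A) RNA is a bulk measure: less RNA per cell and fewer cells that carry it cannot be told apart.

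Promoters of 69 members were found in the RefSeq table (GRCh38.p14, 250 bases before to 50 after the start). MRPL2, MRPL10, MRPL13, MRPL15, MRPL21, MRPL23, MRPL35, MRPS28 and MRPS36 had no entry. Motifs of 3 factors long associated with nuclear genes for mitochondrial proteins were searched on both strands. The YY1 core AAGATGGCG was present in 13 of the 69 promoters (18.8%), against 2.74% of the 15843 promoters of protein-coding genes. The ETS motif CCGGAAG was present in 29 (42.0%), against 14.2%, and the NRF1 core GCGCANGCG in 13 (18.8%), against 11%. In all, 45 members (65.2%) held at least 1 of them, against 24.7% of protein-coding genes. ETS and YY1 matches were both present in 4 members, and overlapped in 0. The promoters below are those of 4 members with a YY1 match that the results turn on: MRPL50, MRPS10, MRPS24 and MRPL36, which had different responses. They read 5′ to 3′ in the direction of the gene, with the motif matches in capitals. In MRPL50 and MRPS24 the capitals mark the YY1 motif, in MRPS10 the ETS and then the YY1 motif, and in MRPL36 the NRF1 and then the YY1 motif, both as the complementary strand.
MRPL50 promoter (minus strand, chr9:101398569-101398868): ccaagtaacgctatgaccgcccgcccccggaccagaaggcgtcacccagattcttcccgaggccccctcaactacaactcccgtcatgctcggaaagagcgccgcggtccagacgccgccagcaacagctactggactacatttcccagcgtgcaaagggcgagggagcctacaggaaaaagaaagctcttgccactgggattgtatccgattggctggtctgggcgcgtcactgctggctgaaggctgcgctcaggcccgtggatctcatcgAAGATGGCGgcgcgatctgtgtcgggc
MRPS24 promoter (minus strand, chr7:43869468-43869767): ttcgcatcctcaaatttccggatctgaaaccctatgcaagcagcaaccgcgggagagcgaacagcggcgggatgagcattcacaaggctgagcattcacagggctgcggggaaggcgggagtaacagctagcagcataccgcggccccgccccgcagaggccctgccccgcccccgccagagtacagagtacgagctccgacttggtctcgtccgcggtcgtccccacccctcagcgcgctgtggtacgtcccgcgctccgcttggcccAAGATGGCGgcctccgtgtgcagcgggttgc
MRPS10 promoter (minus strand, chr6:42217812-42218111): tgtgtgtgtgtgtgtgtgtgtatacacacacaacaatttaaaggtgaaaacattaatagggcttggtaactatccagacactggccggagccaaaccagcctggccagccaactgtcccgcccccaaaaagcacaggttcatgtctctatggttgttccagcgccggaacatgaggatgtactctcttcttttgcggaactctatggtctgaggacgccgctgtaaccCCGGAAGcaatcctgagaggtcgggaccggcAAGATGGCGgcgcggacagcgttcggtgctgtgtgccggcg
MRPL36 promoter (minus strand, chr5:1799788-1800087): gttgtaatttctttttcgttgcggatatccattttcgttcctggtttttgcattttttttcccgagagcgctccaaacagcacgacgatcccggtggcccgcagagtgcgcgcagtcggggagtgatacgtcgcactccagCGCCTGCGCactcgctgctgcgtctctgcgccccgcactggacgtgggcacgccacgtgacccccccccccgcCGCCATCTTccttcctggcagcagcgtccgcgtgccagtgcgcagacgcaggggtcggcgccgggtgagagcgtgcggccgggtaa

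The YY1 match lies near the start site in each of these, and the genes moved differently. With GSK715, MRPL50 fell in both lines, MRPS24 rose in both, MRPS10 fell in WiDr, and MRPL36 rose in WiDr and fell in HCT116. In HCT116 the decrease of MRPS10 was small (log2FC -0.17, adjusted p = 0.0208) and was lost without the first or the second DMSO library, without the second or the third GSK715 library and without the count filter (-0.17 to -0.14). Of the 13 members with the YY1 motif, 7 rose and 5 fell with GSK715 in HCT116, and 4 rose and 8 fell in WiDr short reads; of the 56 without it, 23 rose and 6 fell in HCT116, and 11 rose and 34 fell in WiDr. Of the 29 with the ETS motif, 11 rose and 3 fell in HCT116, and 5 rose and 20 fell in WiDr. Of the 40 without it, 19 rose and 8 fell in HCT116, and 10 rose and 22 fell in WiDr. Of the 13 with the NRF1 motif, 5 rose and 3 fell in HCT116, and 4 rose and 8 fell in WiDr, and of the 56 without it, 25 rose and 8 fell in HCT116, and 11 rose and 34 fell in WiDr. With GSK025, 4 rose and 1 fell of the members with the YY1 motif, 14 and 2 of those with the ETS motif, and 6 and 0 of those with the NRF1 motif. Of those without each motif, 33 rose and 6 fell for YY1, 23 and 5 for ETS, and 31 and 7 for NRF1. In ONT at most 3 members of any of these groups rose and at most 4 fell, and none of the differences between members with and without a motif was tested. For comparison, 22.1% of all genes tested rose and 24.2% fell with GSK715 in HCT116, and 33.6% and 32.2% in WiDr short reads. With GSK025 the shares of all genes were 22% and 22.1%, and in ONT 4.29% and 4.51%. The motif groups were not tested against these shares.

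Levels per length were compared in the DMSO libraries, as CPM per kilobase of the principal transcript. Over both lines the member median was 29.8, with a range of 6.18 to 80.0. MRPL12, the protein of the flexible stalk that contacts translation factors, had 73.5 ± 3.49 CPM per kb in WiDr and 86.5 ± 5.04 in HCT116 (SD, n = 3 each). MRPL13 had 110 ± 2.05 in WiDr and 49.5 ± 1.03 in HCT116, and MRPL3 had 74.3 ± 1.26 in WiDr and 73.9 ± 2.19 in HCT116. MRPL10, which anchors the stalk, had 32.4 ± 2.25 in WiDr and 100 ± 1.25 in HCT116. In the mean over the lines these 4 were highest, and MRPL12 and MRPL13, at 80.0 and 79.9, differed by less than the spread of their libraries. Lowest were MRPL42 at 6.18, MRPS33 at 6.31, MRPS25 at 6.72 and MRPS11 at 7.21, and these too lay within the spread of their neighbours. The low value of MRPL42 rests on a principal transcript of 15582 bases in the annotation. Exons of MRPL12 share 68.2% of their bases with the unnamed gene AC139530.2 on the same strand, so its level is uncertain. Across members, the 2 lines had a Spearman rho of 0.662 (n = 78 genes, which are not independent replicates), and 44 members were lower in WiDr than in HCT116. Levels were scaled within each table, with TMM factors of the DMSO libraries of 0.955 to 0.9631 in WiDr and 1.0503 to 1.0573 in HCT116. The lines are thus not on a common scale, the count can move with it, and no difference in level between them was tested. Between short-read CPM per kb and ONT CPM, rho was 0.29. The ONT values are estimated counts of full-length cDNA reads and were not divided by length. Whether ONT recovers long and short transcripts alike was not tested. The highest ONT levels under DMSO were those of MRPS24 (310.1 and 293.5 CPM), MRPL21 (286.7 and 283.2 CPM), MRPL41 (290.4 and 239.3 CPM) and MRPL33 (238.7 and 243.4 CPM), of which none is among the 4 highest per length in short reads.

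**Figure D1:**
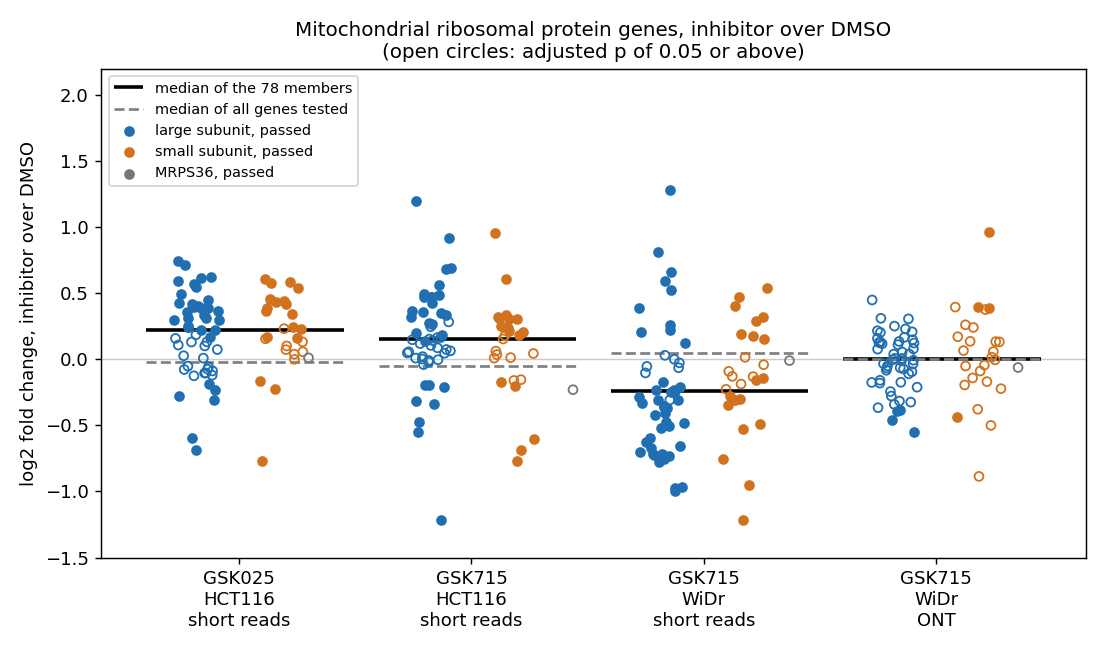
Log2 fold change of each of the 78 members (points) in 4 comparisons of an inhibitor with DMSO, large subunit in blue, small subunit in orange and MRPS36 in grey, filled where the adjusted p was under 0.05. The member median (solid line) lies above the median of all genes (dashed) in HCT116, at 0.22 with GSK025 and 0.15 with GSK715, below it at -0.24 in WiDr short reads, and at 0.00 in ONT.

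With the PRMT5 inhibitor GSK025, more members rose than fell in HCT116: 41 rose, 9 fell and 28 did not pass. Among all 19751 genes tested, 44.1% were called, 22% as higher and 22.1% as lower. The member median was 0.22, against -0.02 over all genes. Both subunits took part, with 26 of 51 large-subunit members higher and 6 lower, and 15 of 26 small-subunit members higher and 3 lower. Of the 52 members that share under 10% of their exonic bases with another gene, 27 rose and 7 fell. The number that fell rested in part on single libraries: 5 fell without the first DMSO library and 4 without the first GSK025 library. Changes went with transcript length across all genes (Spearman rho -0.333) and across members (-0.268), and with the length trend removed 34 rose and 12 fell.

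MRPL23 (ENSG00000214026, GRCh38 chr11:1947278-1984522, plus strand), a protein at the rim of the exit tunnel, had 22.8, 22.5 and 23.4 CPM with GSK025, against 14.6, 13.5 and 13.1 CPM with DMSO. The groups do not overlap, and its log2FC of 0.74 (SE 0.072, adjusted p = 2.47e-06) was the largest increase among members. MRPL41, a large-subunit protein with no bacterial counterpart, had 53.0, 55.5 and 55.9 CPM with GSK025, against 33.0, 32.2 and 35.1 CPM with DMSO (log2FC 0.71, SE 0.060, adjusted p = 7.24e-07). MRPL57 (log2FC 0.62), MRPL49 (0.62), MRPS26 (0.60) and MRPL24 (0.59), a tunnel protein, followed, each with every GSK025 library above every DMSO library. Members named for the largest increases and decreases were picked from those without overlap of libraries, so this separation is no added support. Exons of MRPL49 overlap FAU and SYVN1 on the opposite strand in 12.2% of their bases, no source states the strand of the libraries, and FAU rose as well (log2FC 0.50).

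Fewer members were lower with GSK025. MRPS25 (ENSG00000131368, GRCh38 chr3:15042460-15065335, minus strand), a small-subunit protein with no bacterial counterpart, had 14.8, 14.8 and 14.7 CPM with GSK025, against 26.5, 23.1 and 25.7 CPM with DMSO (log2FC -0.77, SE 0.084, adjusted p = 7.4e-06). Its exons overlap NR2C2 on the opposite strand in 22.2% of their bases, and NR2C2 fell by a like amount (log2FC -0.60), so the value is uncertain. MRPL42 had 65.0, 60.8 and 75.9 CPM with GSK025, against 116.8, 100.4 and 106.6 CPM with DMSO (log2FC -0.68, SE 0.087, adjusted p = 2.62e-05). For this gene with its very long transcript model the call ended once the length trend was removed (log2FC -0.05, adjusted p = 0.665). MRPL1, the protein of the mobile stalk beside the exit site for tRNA, had 17.6, 15.4 and 16.4 CPM with GSK025, against 26, 23.3 and 25.3 CPM with DMSO (log2FC -0.59, SE 0.098, adjusted p = 0.000228). MRPL21 (-0.31), MRPL19 (-0.28) and MRPL47 (-0.23) fell less. The calls of MRPL21 and MRPL47 were lost when single libraries were left out: that of MRPL21 without the first or the second DMSO library or the first GSK025 library or with no count filter, and that of MRPL47 without the first DMSO library or the first or the second GSK025 library (log2FC -0.31 to -0.17).

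GSK715 in HCT116 gave 33 members that rose, 13 that fell and 32 that did not pass, against 46.4% called among all genes, 22.1% as higher and 24.2% as lower. The member median was 0.15, against -0.05 over all genes, and the sign of that median depended on the scaling. With library totals in place of TMM the median of all genes shifted by -0.16, the member median became -0.01, and 21 members rose and 21 fell; relative to all genes the members stood 0.20 higher either way. With the length trend removed, 23 rose and 19 fell. Of the large-subunit members 21 rose and 8 fell, and of the small-subunit members 12 rose and 5 fell. The range among members, from -1.21 to 1.20, was wider than with GSK025, where it ran from -0.77 to 0.74.

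MRPL23 again had the largest increase, with 30.9, 31.5 and 31.8 CPM under GSK715, against 14.6, 13.5 and 13.1 CPM under DMSO (log2FC 1.20, SE 0.072, adjusted p = 3.34e-08). MRPS24 (ENSG00000062582, GRCh38 chr7:43866558-43869893, minus strand), which lines the entry channel of the mRNA, had 71.5, 74.6 and 71.5 CPM with GSK715, against 35.4, 38.5 and 38.0 CPM with DMSO (log2FC 0.96, SE 0.052, adjusted p = 1.52e-08). A readthrough gene on the same strand, URGCP-MRPS24, shares 23.2% of its exonic bases, so MRPS24 is uncertain. MRPL52, a protein of the central protuberance, had 50.4, 48.7 and 48.8 CPM with GSK715, against 26, 25.3 and 26.8 CPM with DMSO (log2FC 0.92, SE 0.078, adjusted p = 6.47e-07). In each of these 3 the libraries of the inhibitor lay apart from those of DMSO by more than the whole spread within a group. They were picked as the largest increases among members without overlap of libraries, so this separation is no added support. MRPL11 of the stalk base (0.69), MRPL48 of the central protuberance (0.69) and MRPS14 of the small-subunit head (0.61) rose too; MRPS14 shares 13.5% of its exonic bases with CACYBP on the opposite strand.

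MRPL50 (ENSG00000136897, GRCh38 chr9:101387633-101398614, minus strand), a large-subunit protein with no bacterial counterpart, fell most: it had 9.74, 8.65 and 9.37 CPM with GSK715, against 22.7, 20.2 and 21.4 CPM with DMSO (log2FC -1.21, SE 0.089, adjusted p = 1.75e-07). MRPS6 (ENSG00000243927, GRCh38 chr21:34073224-34143034, plus strand), a protein of the small-subunit platform with an exonic overlap of 9.6%, had 22.7, 22.0 and 20.0 CPM with GSK715, against 38.3, 39.1 and 33.2 CPM with DMSO (log2FC -0.77, SE 0.081, adjusted p = 4.28e-06). The overlap of MRPS6 is with AP000317.2 and SLC5A3 on the same strand, and their changes were not compared with it. MRPS25 (-0.69), MRPS31 (-0.60), MRPL19 (-0.55) and MRPL42 (-0.48) fell as well. NR2C2, whose exons overlap MRPS25, fell in the same comparison (log2FC -0.66). Removing the length trend turned MRPL42 to a log2FC of 0.07 with no call.

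The inhibitors differed from each other at most members. With GSK715 relative to GSK025, which were given at different doses, 19 members were higher, 30 were lower and 29 did not pass, against 44.3% called among all genes, 21.8% as higher and 22.5% as lower. The member median was -0.08, against 0.00. With library totals the counts were 15 higher and 40 lower. MRPL52 (log2FC 1.00, SE 0.079, adjusted p = 4.11e-07), MRPL48 (0.81), MRPL1 (0.60) and MRPS24 (0.50) were higher with GSK715. MRPS6 had 22.7, 22.0 and 20.0 CPM with GSK715, against 51.6, 58.0 and 51.2 CPM with GSK025 (log2FC -1.31, SE 0.082, adjusted p = 5.03e-08). DMSO libraries of MRPS6 lay between them, at 33.2 to 39.1 CPM, so the gene rose with GSK025 (log2FC 0.54) and fell with GSK715. MRPL50 (-1.09), MRPL14 (-0.73), which lies at the interface of the subunits, and MRPL41 (-0.64) were also lower with GSK715.

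**Figure D2:**
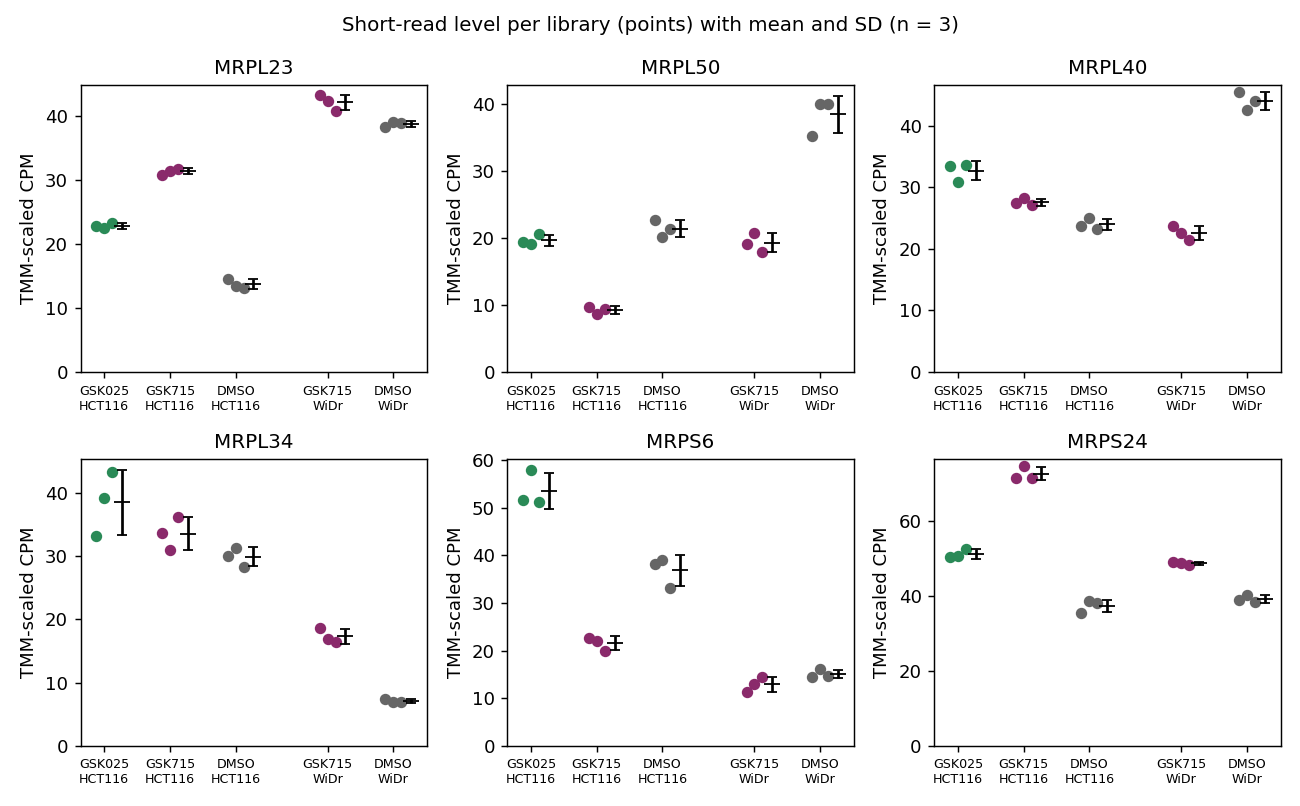
TMM-scaled CPM of 6 members in every short-read library (points), with mean and SD beside them (n = 3). MRPL23 rises with either inhibitor in HCT116, and is higher under DMSO in WiDr than in HCT116. MRPL50 falls with GSK715 in both lines, MRPL40 falls in WiDr and rises in HCT116, MRPL34 rises in WiDr, MRPS6 is highest with GSK025, and MRPS24 is highest with GSK715 in HCT116.

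GSK715 in WiDr lowered more members than it raised: 18 rose, 45 fell and 15 did not pass in the short reads. This line changed broadly, with 65.8% of 19340 genes called, 33.6% as higher and 32.2% as lower. The member median was -0.24, against 0.05 over all genes. Library totals shifted the median of all genes by 0.12, and then 18 members rose and 36 fell, with the members 0.30 below all genes on either scale. Of the 51 large-subunit members 10 rose and 34 fell, and of the 26 small-subunit members 8 rose and 11 fell; whether the subunits differ was not tested. Among the 52 members with little exonic overlap, 12 rose and 30 fell.

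MRPS10 (ENSG00000048544, GRCh38 chr6:42206801-42217865, minus strand), a protein of the small-subunit head, fell most in WiDr. It had 46.8, 44.3 and 45.7 CPM with GSK715, against 109.7, 103.0 and 105.8 CPM with DMSO (log2FC -1.22, SE 0.037, adjusted p = 1.67e-09). MRPL50 had 19.1, 20.8 and 18.0 CPM with GSK715, against 35.3, 40.1 and 40.1 CPM with DMSO (log2FC -0.99, SE 0.077, adjusted p = 1.41e-06). It was thus lower with GSK715 in both lines, with no overlap of the groups in either, which was a condition for naming it. MRPL39, which resembles a tRNA synthetase, had 11.8, 11.9 and 11.2 CPM with GSK715, against 22.6, 20.8 and 25.4 CPM with DMSO (log2FC -0.98, SE 0.088, adjusted p = 4.38e-06). MRPL40 (ENSG00000185608, GRCh38 chr22:19431902-19436075, plus strand), a protein of the central protuberance, had 23.7, 22.5 and 21.4 CPM with GSK715, against 45.4, 42.5 and 44.0 CPM with DMSO (log2FC -0.96, SE 0.060, adjusted p = 2.53e-07). MRPS31 (-0.95) and MRPL33 (-0.78) complete the 6 largest decreases; exons of MRPL33 overlap BABAM2 on the same strand in 21.1% of their bases.

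Among the increases in WiDr, the largest were at genes that share exons with others. MRPL34 (ENSG00000130312, GRCh38 chr19:17292609-17306843, plus strand), a small protein of the large subunit, had 18.6, 16.9 and 16.4 CPM with GSK715, against 7.4, 6.95 and 6.94 CPM with DMSO (log2FC 1.28, SE 0.092, adjusted p = 7.8e-07). ABHD8 on the opposite strand shares 13.2% of its exonic bases and rose as well (log2FC 0.82, adjusted p = 0.00304). MRPL43 had 53.6, 54.8 and 51.7 CPM with GSK715, against 32.2, 27.7 and 31.3 CPM with DMSO (log2FC 0.81, SE 0.062, adjusted p = 1.3e-06). It shares 36.9% of its exonic bases with SEMA4G and TWNK on the opposite strand, of which SEMA4G rose (log2FC 1.82) and TWNK fell (-0.61). Reads of such partners cannot be told apart without strand, so both values are uncertain. MRPL45, which tethers the ribosome to the inner membrane and shares no exon, had 179.7, 176.7 and 170.6 CPM with GSK715, against 112.2, 111.7 and 108.8 CPM with DMSO (log2FC 0.66, SE 0.032, adjusted p = 4.17e-08). MRPL36 had 10.9, 10.1 and 12 CPM with GSK715, against 8.38, 7.26 and 6.22 CPM with DMSO (log2FC 0.60, SE 0.13, adjusted p = 0.00284). MRPS9 of the small-subunit head (0.54) and MRPL10 (0.52) rose too.

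The response to GSK715 differed between the lines at most members. In the interaction test, 8 members had a higher response in WiDr than in HCT116, 56 had a lower one and 14 did not pass, against 46.7% called among 21791 genes, 23.2% as higher and 23.5% as lower. The member median of the difference was -0.42, against 0.12 over all genes. All 78 members are among the 16313 genes tested in both lines. The 21791 genes thus include genes that did not pass the filter in both, and a share of the interaction without them was not computed. Library totals shifted the median of all genes by 0.34 and left 16 higher and 26 lower, with the members 0.53 below all genes, against 0.54 below with TMM. GSK715 lowered 15 members in WiDr that it raised in HCT116, and MRPL36 alone was raised in WiDr and lowered in HCT116. In both lines 12 members rose and 10 fell. The 15 are 19.2% of the members, against 8.96% of the 16313 genes tested in both lines, and MRPL36 is 1.28%, against 5.69%. Those that rose in both lines are 15.4%, against 11.2%, and those that fell in both are 12.8%, against 14.3%. None of these shares was tested against that of all genes. Across the 78 members the WiDr and HCT116 changes had Pearson r 0.353 and Spearman rho 0.355, and 38 had the same sign.

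**Figure D3:**
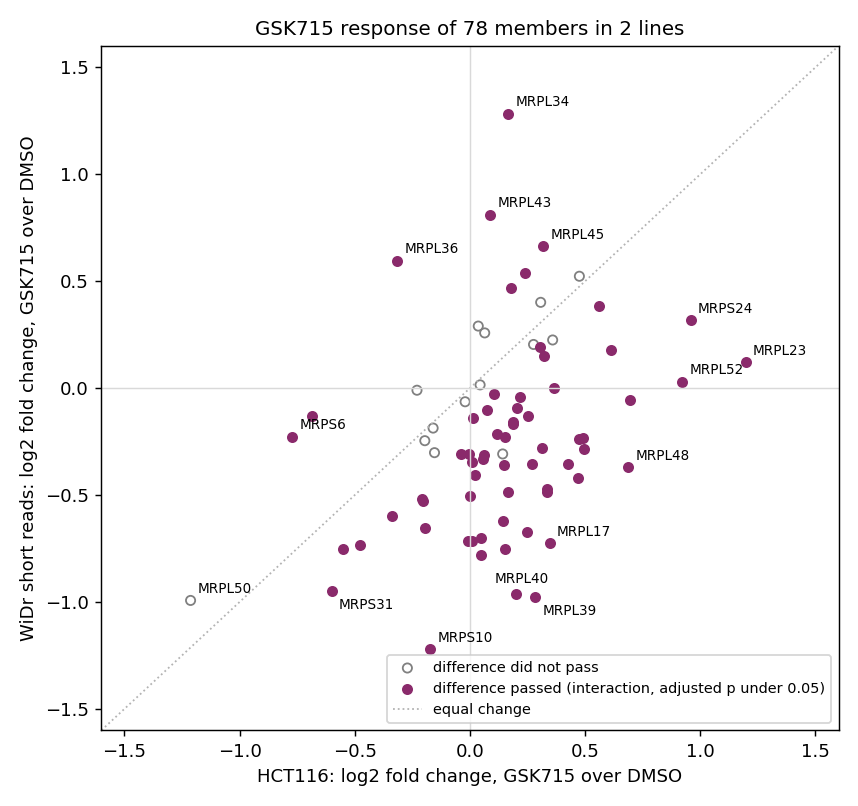
Log2 fold change of GSK715 over DMSO for the 78 members in WiDr short reads (vertical) and in HCT116 (horizontal), filled where the interaction test passed. Most points lie below the dotted line of equal change, 56 of them with a called lower response in WiDr and 8 with a called higher one; MRPL50 lies low on both axes.

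MRPL39 had the largest difference (interaction log2FC -1.33, SE 0.16, adjusted p = 1.57e-05). It fell in WiDr as given above, whereas in HCT116 it had 21.6, 18.4 and 26 CPM with GSK715, against 18.2, 18.2 and 17.8 CPM with DMSO (log2FC 0.28, adjusted p = 0.0558; 0.31 and past the threshold with RLE size factors or DESeq2, and 0.40 without the second GSK715 library). MRPL40 differed by -1.23 (SE 0.082, adjusted p = 3.96e-08): in HCT116 it had 27.4, 28.2 and 27.1 CPM with GSK715, against 23.7, 25 and 23.3 CPM with DMSO. That increase (log2FC 0.20, adjusted p = 0.0222) was lost without the first or the third DMSO library, without the second GSK715 library, with library totals and with the length trend removed (0.04 to 0.19). MRPL23 differed by -1.15 (SE 0.076, adjusted p = 4.06e-08). In WiDr its libraries had 43.3, 42.4 and 40.9 CPM with GSK715, against 38.3, 39.2 and 39.0 CPM with DMSO (log2FC 0.12, adjusted p = 0.0429), a small rise from a DMSO level well above that in HCT116. Its WiDr call was lost without any single DMSO library, without the first or the second GSK715 library, with DESeq2, and under 4 other alternatives (0.06 to 0.12). MRPL34 (1.05), MRPL36 (0.84) and MRPL43 (0.65) had the largest differences in the other direction. In HCT116, MRPL36 had 14.7, 13.9 and 16.4 CPM with GSK715, against 17.6, 18.5 and 19.8 CPM with DMSO (log2FC -0.32, SE 0.096, adjusted p = 0.016), a call lost without the third DMSO or the second GSK715 library (-0.27 and -0.26).

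ONT libraries of WiDr, which give estimated counts of full-length cDNA reads, called few members: 3 rose, 5 fell and 70 did not pass. Over 15877 genes 8.8% were called, 4.29% as higher and 4.51% as lower, so the share among members was close to that of all genes. The medians of members and of all genes were both 0.00. The ONT libraries were far shallower, which limits the precision, and 17 members (21.8%) had an unadjusted p under 0.05, close to the 21.5% of all genes. None of the 8 calls held with DESeq2 or without the count filter (0 rose and 0 fell in each). Single libraries decided the counts as well: none rose without the first or the second DMSO library, 1 rose without the first GSK715 library, none fell without the first DMSO library, and 1 fell without the second DMSO or the second GSK715 library. With library totals 2 rose and 7 fell.

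MRPS24 had 410.1 and 382.5 CPM with GSK715, against 310.1 and 293.5 CPM with DMSO in ONT (log2FC 0.39, SE 0.095, adjusted p = 0.00449). MRPS9 had 25.6 and 22.5 CPM with GSK715, against 14.8 and 9.6 CPM with DMSO (log2FC 0.96, SE 0.30, adjusted p = 0.0308). Both rose in WiDr short reads too. MRPS35 had 120.5 and 121.8 CPM with GSK715, against 91.7 and 93.9 CPM with DMSO (log2FC 0.39, adjusted p = 0.0421), whereas in WiDr short reads it fell (log2FC -0.28). MRPL50 had 68.7 and 56.5 CPM with GSK715, against 92.3 and 91.2 CPM with DMSO (log2FC -0.55, SE 0.15, adjusted p = 0.0102), the same direction as in the short reads of both lines. MRPL27 (-0.46), MRPS16 (-0.44), MRPL17 (-0.39) and MRPL41 (-0.38) fell as well; MRPL17 and MRPL41 are named because every call of so short a list is given. MRPS16 shares 14.9% of its exonic bases with DNAJC9 and an antisense gene, and DNAJC9 fell in ONT (log2FC -0.64).

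**Figure D4:**
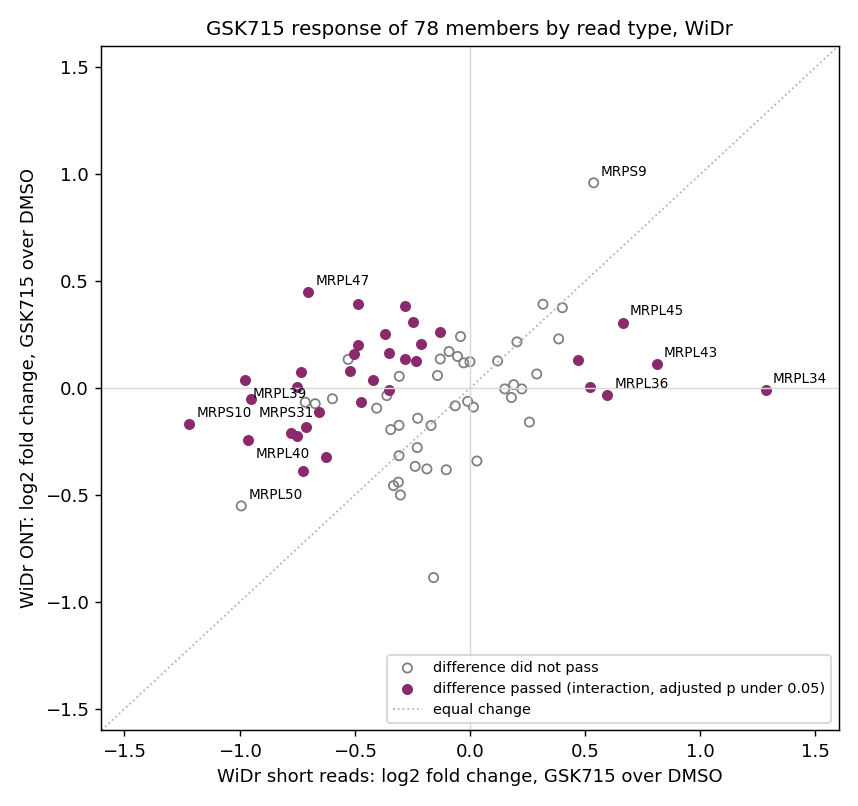
Log2 fold change of GSK715 over DMSO for the 78 members in WiDr ONT (vertical) and in WiDr short reads (horizontal), filled where the difference between read types passed. The ONT values stay within -0.89 and 0.96 and the short-read values within -1.22 and 1.28; MRPL34, MRPL43 and MRPL36 lie far to the right near 0 in ONT, and MRPS10, MRPL39 and MRPL40 far to the left.

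Many members answered differently to GSK715 in the 2 read types of WiDr. In the interaction test 28 were higher in ONT than in short reads, 6 were lower and 44 did not pass, against 19.9% called among 24055 genes, 11.2% as higher and 8.69% as lower. The member median of the difference was 0.32, against -0.04 over all genes. All 78 members passed the count filter of the ONT table alone, which 15877 genes passed. The 24055 genes thus include genes with too few ONT counts for that filter, and a share without them was not computed. Library totals shifted the median of all genes by -0.20 and gave 15 higher and 9 lower, with the members 0.34 above all genes, against 0.36 with TMM. Without the first ONT DMSO library 18 were higher and 2 lower, and 3 were lower without the second ONT DMSO library, the second ONT GSK715 library or the first short-read GSK715 library. Average ONT read length was 1095.19 and 1160.11 bases with GSK715, against 1174.68 and 1205.82 bases with DMSO; its part in these differences was not tested. Across members the ONT and short-read changes had Pearson r 0.308 and Spearman rho 0.308, and 44 of 78 had the same sign.

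MRPL47, which sits at the tunnel exit, had 40.4 and 28.6 CPM with GSK715, against 30.1 and 19.9 CPM with DMSO in ONT (log2FC 0.45, adjusted p = 0.269), and 13.9, 14.8 and 15.1 CPM with GSK715, against 24.4, 23.4 and 23.4 CPM with DMSO, in short reads (log2FC -0.70, adjusted p = 7.06e-06). The ONT groups overlap and the short-read groups do not, and the difference was 1.20 (SE 0.23, adjusted p = 0.0024). MRPS10 had 22.9 and 19.7 CPM with GSK715, against 25.2 and 22.6 CPM with DMSO in ONT, so its large decrease in short reads had no counterpart of that size there (difference 1.1, SE 0.16, adjusted p = 0.000365). MRPL39 differed by 1.07 (adjusted p = 0.00998), a call lost without the second ONT DMSO or the second ONT GSK715 library (0.90 and 0.79). MRPL34 had 123.2 and 95.3 CPM with GSK715, against 118.7 and 100.8 CPM with DMSO in ONT, where it showed no change of the size in short reads (difference -1.24, SE 0.16, adjusted p = 0.000113). MRPL43 (-0.65, adjusted p = 0.0082) and MRPL36 (-0.58, adjusted p = 0.0464) were the next lowest. The call of MRPL43 was lost without the first ONT DMSO library (-0.58), and that of MRPL36 under 12 of the alternatives tried. ABHD8 and SEMA4G, which share exons with MRPL34 and MRPL43 and rose in short reads, had a log2FC of -0.52 (adjusted p = 0.468) and -0.30 (adjusted p = 0.669) in ONT. TWNK, the other partner of MRPL43, fell in short reads (-0.61) and had 0.62 in ONT (adjusted p = 0.346).

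Side by side in the 3 short-read comparisons with DMSO, of which the HCT116 ones share their DMSO libraries, 10 members rose in all 3, 3 fell in all 3 and 30 were called in opposite directions in at least 2. As shares these are 12.8%, 3.85% and 38.5% of the members, against 6.49%, 8.59% and 24.6% of the 16313 genes tested in both lines; the differences between these shares were not tested. MRPL38 of the central protuberance had a log2FC of 0.42 with GSK025 in HCT116, 0.56 with GSK715 in HCT116 and 0.38 with GSK715 in WiDr. MRPL10 had 0.32, 0.48 and 0.52 in the same order, MRPS27 had 0.25, 0.31 and 0.40, and MRPS24 had 0.46, 0.96 and 0.32. MRPL38 shares 41.1% of its exonic bases with 2 unnamed genes and is uncertain. Also higher in all 3 were MRPS9, MRPL24, MRPS26, MRPS14, MRPS18B and MRPL23; the WiDr increase of MRPL24 (log2FC 0.20, adjusted p = 0.0479) was lost without the third DMSO library, without any single GSK715 library, with RLE size factors, with no count filter, with the length trend removed and without the mitochondrially encoded genes (0.11 to 0.22). The HCT116 increases of MRPS9, MRPL24 and MRPS26 with GSK715 were lost with library totals and with the length trend removed (0.08 to 0.15). The call of MRPS14 with GSK025 (log2FC 0.23, adjusted p = 0.0486) was lost without the first or the third DMSO library or the second or the third GSK025 library, with library totals, with no count filter, with the length trend removed and with only the 2 groups fitted (0.16 to 0.24). Its call in WiDr (0.18, adjusted p = 0.0423) was lost without any single DMSO library, without the first or the second GSK715 library, with DESeq2, with no count filter, with the length trend removed and without the mitochondrially encoded genes (0.15 to 0.19). Lower in all 3 were MRPL42 (-0.68, -0.48 and -0.73), MRPL19 (-0.28, -0.55 and -0.75) and MRPL13 (-0.19, -0.21 and -0.52). Both HCT116 calls of MRPL42 were lost with the length trend removed (-0.05 with GSK025 and 0.07 with GSK715). The calls of MRPL13 in HCT116 were lost without the first DMSO library with either inhibitor, and with GSK025 also without the third DMSO or the first GSK025 library (-0.19 to -0.13).

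Members with opposite calls were led by MRPL40, with a log2FC of 0.45 with GSK025 in HCT116, 0.20 with GSK715 in HCT116 and -0.96 with GSK715 in WiDr. MRPL17, near the tunnel exit, had 34.4, 35.1 and 33.7 CPM with GSK715, against 56.0, 57.9 and 56.9 CPM with DMSO in WiDr (log2FC -0.73, adjusted p = 1.71e-07). In HCT116 it had 79.2, 72.9 and 70.7 CPM with GSK715, against 52.8, 63.1 and 59.2 CPM with DMSO (log2FC 0.35, adjusted p = 0.00196), a call lost with library totals (0.19). MRPL48 showed the same contrast, with 32.4, 31.1 and 29.7 CPM under GSK715, against 42.3, 39.5 and 38.9 CPM under DMSO in WiDr (log2FC -0.37). In HCT116 it had 54.5, 56.0 and 52.5 CPM under GSK715, against 32.7, 33.1 and 35.5 CPM under DMSO (log2FC 0.69). In each of these the groups stand apart in both lines, on opposite sides. They were named for their opposite calls, so this separation is no added support. MRPL18 (0.57 with GSK025, 0.34 with GSK715 in HCT116, -0.47 in WiDr), MRPL54 (0.34, 0.25 and -0.67), MRPL14 (0.39, -0.34 and -0.60) and MRPL58, a peptidyl-tRNA hydrolase built into the large subunit (0.31, 0.01 and -0.72), belong to the same list. Of these, MRPL54 and MRPL58 did not pass with GSK715 in HCT116, and the GSK025 call of MRPL54 was lost without the second or the third DMSO library or the first or the third GSK025 library, with library totals, with no count filter and with the length trend removed (0.20 to 0.34). Without the third GSK715 library MRPL54 did pass with GSK715 in HCT116 (0.37). With the length trend removed MRPL58 passed there as lower (-0.18). MRPL53 and MRPS36 passed in none of the 3.

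Other genes of the mitochondrial ribosome and of translation were followed for comparison. Among all genes tested, 22% rose and 22.1% fell with GSK025, and 22.1% and 24.2% with GSK715 in HCT116. In WiDr the shares were 33.6% and 32.2% in short reads and 4.29% and 4.51% in ONT. Translation factors gave 17.6% and 23.5% with GSK715 in HCT116, and assembly factors 26.9% each way, near the shares of all genes. No list was tested against these shares, and the values of the genes outside the members were not recomputed under the alternatives. The 5 subunits with other symbols gave 3 higher and 1 lower with GSK025, 1 higher and 1 lower with GSK715 in HCT116, 1 higher and 4 lower in WiDr short reads, and 1 lower in ONT. PTCD3, a pentatricopeptide-repeat protein of the small subunit, fell in all 3 short-read comparisons (log2FC -0.39, -0.60 and -0.68), CHCHD1 rose in all 3 (0.46, 0.47 and 0.44), and DAP3, a GTP-binding small-subunit protein, fell in WiDr (-0.52). AURKAIP1 rose with GSK025 (0.43) and fell in WiDr (-0.57), as did GADD45GIP1 (0.73 and -0.37), which also fell in ONT (-0.66). Of 17 translation factors, 4 rose and 7 fell with GSK025, 3 and 4 with GSK715 in HCT116, 5 and 10 in WiDr short reads, and none in ONT. LRPPRC, which stabilises mitochondrial mRNAs, fell in all 3 short-read comparisons (-0.87, -0.72 and -0.40), as did the elongation factor GUF1 (-1.27, -0.75 and -0.56), and the elongation factor TUFM rose (0.46, 0.59 and 0.09). Of 26 assembly factors, 10 rose and 4 fell with GSK025, 7 and 7 with GSK715 in HCT116, 5 and 10 in WiDr short reads, and NGRN alone fell in ONT (-0.43). FASTKD2 fell most in WiDr (-1.69), where C1QBP (-0.78) and NGRN (-0.76) also fell and NOA1 rose (0.93). In HCT116, DHX30 (0.65) and ERAL1 (0.79) rose with GSK025, and METTL17 (0.72) rose and MALSU1 (-0.70) and RBFA (-0.82) fell with GSK715.

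**Figure D5:**
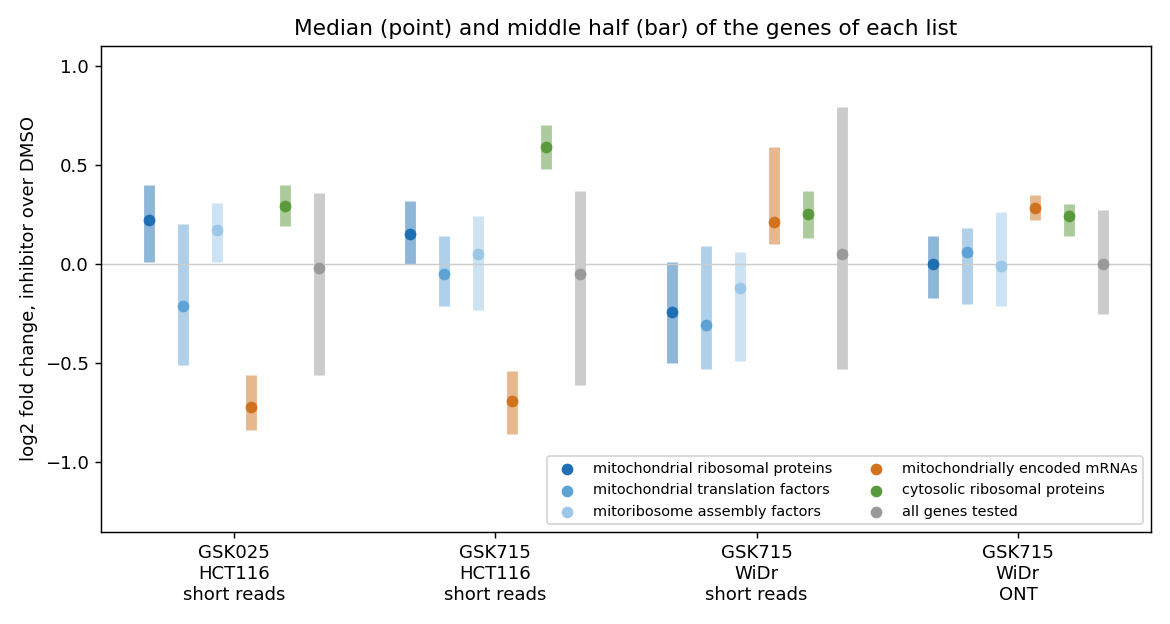
Median (point) and middle range from the lower to the upper quartile (bar) of log2 fold change for 5 gene lists and for all genes tested, in 4 comparisons of an inhibitor with DMSO. The mitochondrially encoded mRNAs have medians of -0.72 and -0.69 in HCT116 and 0.21 and 0.28 in WiDr, opposite in sign to the members' medians in the 3 short-read comparisons, and the cytosolic ribosomal proteins lie above 0 throughout.

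The mRNAs that the mitochondrial ribosome translates moved the other way from the members' medians in the short reads, though with library totals the members' median with GSK715 in HCT116 was -0.01. Of the 13 mitochondrially encoded mRNAs, 12 fell and none rose with each inhibitor in HCT116 (medians -0.72 with GSK025 and -0.69 with GSK715), the exception being MT-ND3. In WiDr short reads 9 rose and MT-ND1 fell (median 0.21), and in ONT 6 rose and none fell (0.28). The calls of these mRNAs were not recomputed under the alternatives. All mitochondrially encoded genes together took 5.126% to 5.484% of counts with GSK025, 5.091% to 5.416% with GSK715 and 8.64% to 9.092% with DMSO in HCT116, and 8.302% to 8.833% with GSK715 and 6.068% to 6.486% with DMSO in WiDr short reads. With these genes left out of the scaling, an alternative added after seeing the data, 33 members rose and 13 fell with GSK715 in HCT116, and 15 rose and 45 fell in WiDr. The ribosomal RNA MT-RNR1 fell with GSK025 (-0.29) and rose with GSK715 in HCT116 (0.24), in WiDr (0.40) and in ONT (0.47). MT-RNR2 fell with both inhibitors in HCT116 (-0.65 and -0.39) and rose in WiDr short reads (0.09) and ONT (0.46). Mitochondrial RNAs carry short poly(A) tails, and the short-read libraries were made by poly(A) selection.

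The genes of the cytosolic ribosomal proteins were followed as well. Of 82 tested in HCT116, 67 rose and none fell with GSK025 (median 0.29), and 76 rose and none fell with GSK715 (0.59). These increases are 81.7% and 92.7% of the list, against 22% and 22.1% of all genes tested. Changes went with transcript length across all genes in HCT116 (Spearman rho -0.333 with GSK025 and -0.331 with GSK715). The part of length in this list was not tested. In WiDr 65 of 81 rose and 6 fell in short reads (0.25), and 28 rose and none fell in ONT (0.24). There the increases are 80.2% and 34.6% of the list, against 33.6% and 4.29% of all genes tested. The calls of this list were not recomputed under the alternatives, in ONT or in the short reads. In WiDr short reads the medians of the cytosolic and mitochondrial ribosomal proteins thus had opposite signs, 0.25 and -0.24.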

How the data were processed

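Short-read poly(A) RNA of HCT116 and WiDr and ONT full-length cDNA of WiDr were measured in 19 libraries of 7 groups. Values deposited for the short reads are whole counts for each gene, without normalization. The ONT values as deposited are estimated counts, of which 15.1% are not whole, and were rounded. Average ONT read lengths in bases were taken from the submitters' run summary, per the file headers. Per the submitters' processing notes, cutadapt, HISAT2, StringTie, DESeq2, minimap2 and Salmon were used with build GRCh38; annotation release and strand are not given in the sources used here. IDs were matched to symbols, coordinates and exonic overlaps with GENCODE 29. Among ONT features, 3991 IDs are not from Ensembl (8.49% to 9.81% of counts) and stayed in the fit.

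Each whole table was fitted by edgeR 4.0.16 under R 4.3.3 (quasi-likelihood F-test, TMM, filterByExpr with at least 10 counts and 15 in total, Benjamini-Hochberg adjustment, threshold 0.05). All 9 HCT116 libraries shared 1 fit, and the interactions used IDs shared by their tables. The procedure was tested on simulated data. Overlap of at least 10% of exonic bases marks a value as uncertain. Whether libraries came from separate cultures is not stated; the p-values reflect only how these libraries vary, which may be technical. No library was a copy of another within its group (variance of differences 1.51 to 27.27 times that of counting).

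Members, groups, lists and alternatives were chosen with earlier results of these data known. Named by rule were the 6 largest called increases and decreases per comparison without overlap of libraries (4 between inhibitors, 3 for ONT and interactions), the 4 highest and lowest levels, up to 8 members called in opposite and 8 in the same direction, and leading members of the other lists; further members were named after their values were seen, as members of short lists. Alternatives were RLE size factors, library totals, no count filter, DESeq2 1.42.0, a replicate block and removal of the length trend by lowess. The lowess was fitted over genes above a low floor of average CPM. Other alternatives were only the groups compared, each replicate left out and, added after seeing the data, no mitochondrially encoded genes. Spearman rho of change with length over all genes used genes with a mean above 5 CPM.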

Additional observations from a re-analysis of the deposited data

Results flagged for a closer look

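The test of the difference between lines singled out 6 members whose response to GSK715 differed most, WiDr minus HCT116: MRPL34 (interaction log2FC 1.05), MRPL36 (0.84) and MRPL43 (0.65) were higher in WiDr, and MRPL39 (-1.33), MRPL40 (-1.23) and MRPL23 (-1.15) were lower. The same test between read types of WiDr, ONT minus short reads, singled out MRPL47 (1.20), MRPS10 (1.1) and MRPL39 (1.07) as higher in ONT, and MRPL34 (-1.24), MRPL43 (-0.65) and MRPL36 (-0.58) as lower. MRPL34, MRPL36, MRPL43 and MRPL39 appear in both, so each of these has a WiDr short-read change that differs from the change in HCT116 and from the change in WiDr ONT. Exons of MRPL34 and MRPL43 overlap genes on the opposite strand (13.2% and 36.9% of their bases), and the part of that overlap was not tested. MRPL36, MRPL39, MRPL40 and MRPS10 share no exonic bases with another gene.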

How the results depend on the processing

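Over the alternatives, 118 values of 42 members were recomputed, which gave 1641 pairs of a value and an alternative; in 1499 pairs the direction and the side of the threshold were kept, in 130 the call was lost, in 7 it was gained and in 5 the direction reversed. The reversals were MRPL42 with GSK715 in HCT116 once the length trend was removed (0.07), and MRPL58 there, which had no call (0.01). MRPL58 reversed with library totals (-0.15), without the third DMSO library (-0.03) and without the third GSK715 library (-0.02). Over libraries left out it ranged from -0.03 to 0.06. MRPL58 also reversed with the length trend removed, and was then called as lower (-0.18, edgeR adjusted p = 0.0266). Library totals gave 21 members rising and 21 falling with GSK715 in HCT116, 16 and 26 for WiDr minus HCT116, and 15 rising for ONT minus short reads; the shift of all genes is given with each. ONT counts were 0 rising and 0 falling with no count filter and with DESeq2. For ONT minus short reads, 3 fell with no count filter and 3 with the replicate block. With single libraries left out, 4 to 8 fell with GSK025, 0 to 3 rose and 0 to 5 fell in ONT, and 18 to 30 rose and 2 to 6 fell for ONT minus short reads. Where a group kept 1 ONT library, that library was taken to vary like the others. Deviations of libraries with the same replicate number had correlations of -0.158 to 0.181, and those of libraries with different numbers -0.308 to 0.19. With so few libraries per group, these values cannot decide whether replicate numbers pair the libraries. With the replicate block, 40 members rose and 9 fell with GSK025, 33 and 13 with GSK715 in HCT116, 16 and 46 in WiDr, and 4 and 6 in ONT. Among the members printed above, the block left MRPS14 with GSK025 (0.23, adjusted p = 0.0611), MRPS14 and MRPL23 in WiDr (0.18 and 0.12, adjusted p = 0.0779 and 0.0687) and MRPL36 for ONT minus short reads (-0.58, adjusted p = 0.0918) without a call. Other causes of these shifts were not tested. The ONT depth limits the precision of members with few counts, and 76 of 78 had at least 10 counts in every ONT library.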
